A study of Mus musculus with 9 samples.

Results

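Nonsense-mediated decay (NMD) is the pathway by which cells destroy an mRNA whose reading frame ends too early, and the genes described here encode 9 of its core factors: Upf1, Upf2, Upf3a, Upf3b, Smg1, Smg5, Smg6, Eif4a3 and Casc3. They were chosen by name, and all 9 were found by Ensembl identifier and gene symbol among the 36121 genes measured in sciatic nerve. Each of the 9 libraries came from the nerves of 1 C57BL6 mouse aged 21 days, 3 mice per genotype, with 2 females and 1 male in each. The control mice carried Tardbp-fl/fl and no Cre, the cHet mice Cnp-Cre with Tardbp-fl/+, and the cKO mice Cnp-Cre with Tardbp-fl/fl. Tardbp encodes TDP-43, an RNA-binding protein that keeps cryptic exons out of mRNA. The Cre stands at the locus of the myelin enzyme gene Cnp and acts in Schwann cells and oligodendrocytes, so that a whole nerve still holds cells that keep TDP-43. Genotypes were taken from the sample titles. The genotype field goes against the title for 3 libraries, 1 titled cHet (cHet 1) and 2 titled cKO (cKO 1 and cKO 2).

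NMD reads a stop codon against what lies downstream of it. During splicing the exon junction complex is set down upstream of each exon-exon junction, with the helicase Eif4a3 clamped on the RNA and Casc3, also known as Barentsz or MLN51, attached to it. A ribosome that terminates well before the last junction leaves such a complex in place, and Upf3b or Upf3a and then Upf2 bridge it to the helicase Upf1. The kinase Smg1 phosphorylates Upf1, and phosphorylated Upf1 recruits Smg6, the endonuclease that cuts the mRNA near the stop codon, and Smg5, an adaptor to deadenylation and decapping enzymes. Several mRNAs of UPF and SMG factors are themselves substrates of the pathway in mammalian cells, which gives it a feedback on its own abundance. The pathway bears on this study because a cryptic exon of Nfasc, the neurofascin gene that TDP-43 protects in Schwann cells, carries a premature stop.

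That exon, CE1, is shown because it is the kind of sequence on which the 9 factors act. It is 104 bases long and lies on the minus strand of GRCm38 at chr1:132607987-132608090, in an intron of Nfasc, downstream of exon 17. In the sequence the capitals mark the first stop codon in the frame that exon 17 leaves.
CE1 of Nfasc: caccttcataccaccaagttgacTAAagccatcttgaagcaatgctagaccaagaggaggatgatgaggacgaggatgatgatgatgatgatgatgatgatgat
With 1 base of a codon carried over from exon 17, the frame reaches the codon TAA at bases 24 to 26 of the exon. The gene-level table holds no value for this exon or its junctions.

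The main transcripts of the 9 genes, taken as annotated in GENCODE M21 on GRCm38, ranged from 1509 bases in 12 exons for Eif4a3 to 15557 bases in 63 exons for Smg1. Among the 13988 tested genes with a coding main transcript, 16.9% were shorter than Eif4a3 and 99.7% shorter than Smg1. In none of the 9 did a junction lie more than 50 bases past the stop codon, the distance usually given for NMD, and among those 13988 genes 0.458% had one. The stop codon of Upf1 was followed by a junction after 3 bases and that of Casc3 by one after 42 bases. The 3′ UTR, a long stretch of which can also mark an mRNA for decay, ranged from 180 bases in Eif4a3 to 4233 bases in Smg1, and 5 of the 9 exceeded the median of those genes, 985.5 bases. Runs of at least 6 TG repeats, in which TDP-43 is known to bind, were found on the sense strand of 6.83% of the spliced main transcripts of those genes and of 0 of the 9 members, whose longest run was 3 repeats. Introns were not searched.

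**Figure D1:**
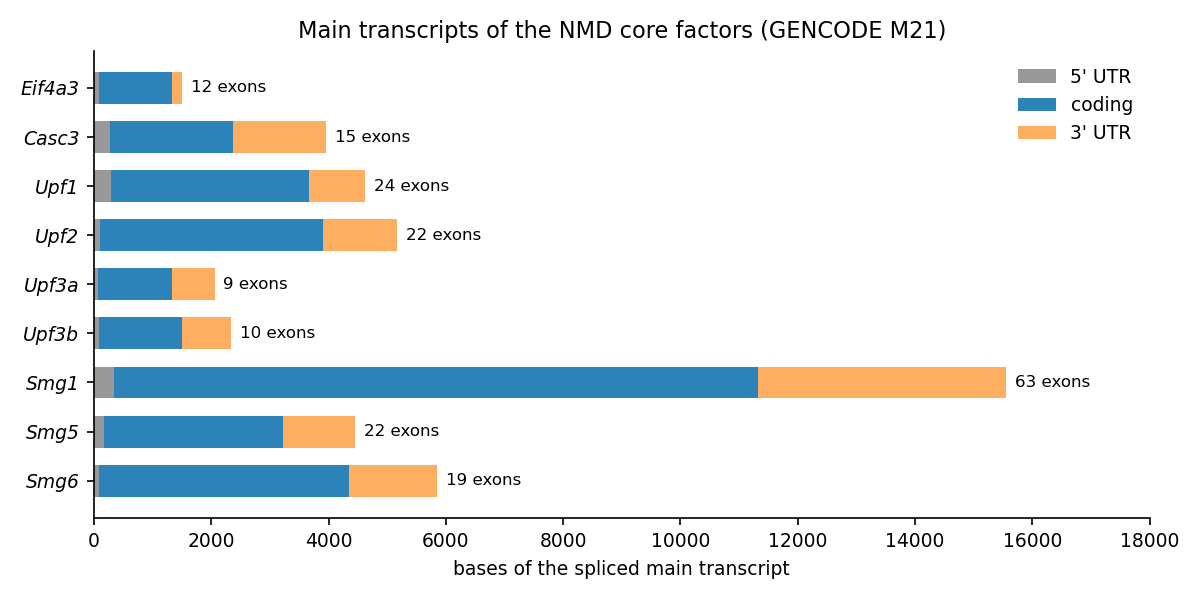
Length in bases of the 5′ UTR (grey), coding part (blue) and 3′ UTR (orange) of the annotated main transcript of each NMD core factor, with the number of exons beside each bar. Smg1 is the longest at 15557 bases and Eif4a3 the shortest at 1509 bases.

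For 3 of the 9 genes the annotation also lists a transcript of the biotype nonsense-mediated decay, that is, an isoform whose own stop codon would call the pathway. Their last 30 coding bases are shown because they are where these isoforms end, with the stop codon in capitals.
Smg1-204: atgacagagaccgaagactggctactgTAA
Smg5-202: gtggaagccatgtattgctacttgcgcTGA
Smg6-202: gatgatggagacattccctgcagtggcTGA
Smg1 lies on the minus strand of GRCm38 at chr7:118131308-118243670, Smg5 on the plus strand at chr3:88336260-88362338 and Smg6 on the plus strand at chr11:74925823-75164448, and the windows are of spliced RNA. After its stop codon Smg1-204 has 59 further junctions, the next 41 bases away. Smg5-202 has 3 junctions after the stop, the next at 156 bases, and Smg6-202 has 9, the next at 119 bases. The annotated start of the coding part is incomplete in each of the 3. Of these windows the letters of Smg1-204 also occur in the main Smg1 transcript. The values below are per gene, so that the share of these isoforms was not measured, and a gene's value sums productive and unproductive transcripts.

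The targeted gene checked the titles. Tardbp measured 185, 194 and 217 normalized TPM in control, 177, 179 and 186 in cHet and 103, 94.2 and 103 in cKO. The cKO values lay below those of both other groups, at a log2 fold change of -0.98 against control (limma adjusted p = 0.00219) and -0.85 against cHet (limma adjusted p = 0.00391). Without the libraries whose genotype field differs from the title, the change against control was -0.94, with an adjusted p of 0.358 from limma on 1 cKO library. Cnp, whose locus holds the Cre, measured 1168, 1267 and 1700 normalized TPM in control, 640.5, 849 and 803 in cHet and 554, 799 and 497.5 in cKO, so that every library titled cHet or cKO lay below every control library. The 9 markers of Schwann cells summed to between 100549 and 129128 normalized TPM in control, 93891 and 132460 in cHet and 75945 and 106264 in cKO, where cKO 3 and cKO 1 were the lowest of the 9 libraries. For cKO against control 6 of these 9 markers had a fold change below 0 on the log2 scale, as did 6 of 6 endothelial markers (median -0.29, and -0.25 against cHet), beside 8051 of all 15014 genes. The Schwann cell markers went both ways. Of the 9, 3 lay above 0, up to 0.70. The 2 with an unadjusted p under 0.05 from limma were both higher in cKO, beside 12.9% of all tested genes. Endothelial sums were 140.3 to 180 in control, 150.1 to 178 in cHet and 108 to 175 in cKO, and those of 6 red blood cell markers ranged from 1275 in cKO 2 to 8116 in cKO 3. Other markers were more uneven: 11 neuron markers summed to between 179 and 4294, with control 2, cHet 1 and cKO 3 at 1687 or more, 9 skeletal muscle markers to between 25.7 and 15754, with control 1 and cKO 3 at 8248 or more, and 7 adipocyte markers to between 56.4 and 2981, with control 1 and control 3 at 2068 or more. No marker of these lists was at 0 in any library. In such bulk tissue, fewer cells of a type and less RNA per cell cannot be told apart.

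All 9 factors were expressed in every library. Values are transcripts counted relative to library size and transcript length (TPM) and scaled further between libraries by the authors, so that levels of different genes can be set side by side. The mean over 9 libraries was highest for Eif4a3 at 69.2 and Upf3a at 57.3, followed by Smg5 at 42.8, Casc3 at 30.5, Upf3b at 27.9, Smg1 at 24.0, Upf1 at 20.3, Upf2 at 17.1 and Smg6 at 13.6 normalized TPM. The median of the 15014 tested genes was 15.6, and of those genes 85.8% lay below Eif4a3 and 46.5% below Smg6. Upf1, the ATPase at the centre of the pathway, was not its most abundant mRNA. Upf3a stood first in the control nerves and Eif4a3 in the cHet and cKO, and the order of the others was the same in all 3 groups. In the control nerves the libraries of neighbours in this order overlapped for Upf3a and Eif4a3, for Casc3 and Upf3b and for Upf3b and Smg1, and were apart for the other pairs. In the cKO the libraries of Eif4a3 no longer overlapped those of Upf3a, while those of Smg1, Upf1 and Upf2, which were apart in the control nerves, overlapped from each to the next.

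Not one of the 9 factors passed the test across all genes in any comparison. At an adjusted p under 0.05 from limma, 0 of 9 were called for cKO against control, where 1.57% of the 15014 tested genes were called, 0 of 9 for cHet against control, where 0.0% were called, and 0 of 9 for cKO against cHet, where 1.71% were called. At an unadjusted p under 0.05, 2 of the 9 (Eif4a3 and Upf3b, both higher) were reached for cKO against control beside 12.9% of all tested genes. The count was 0 for cHet against control beside 2.72%, and 1 (Eif4a3, higher) for cKO against cHet beside 14.6%. Counted by the libraries alone, 3 factors had their 3 cKO values above all 3 control values (Eif4a3, Upf3b and Smg6), as 8.85% of tested genes did, and 1 had them below (Smg1), as 8.57% did. For cHet against control the counts were 1 above (Upf3b, beside 2.69%) and 0 below (beside 4.41%), and for cKO against cHet 0 above (beside 13.3%) and 0 below (beside 11.0%). The median log2 fold change of the 9 was 0.039, 0.044 and 0.021 in the 3 comparisons, beside -0.023, -0.026 and 0.016 for all tested genes. The control libraries served both comparisons against control, and the cKO libraries both comparisons of cKO.

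**Figure D2:**
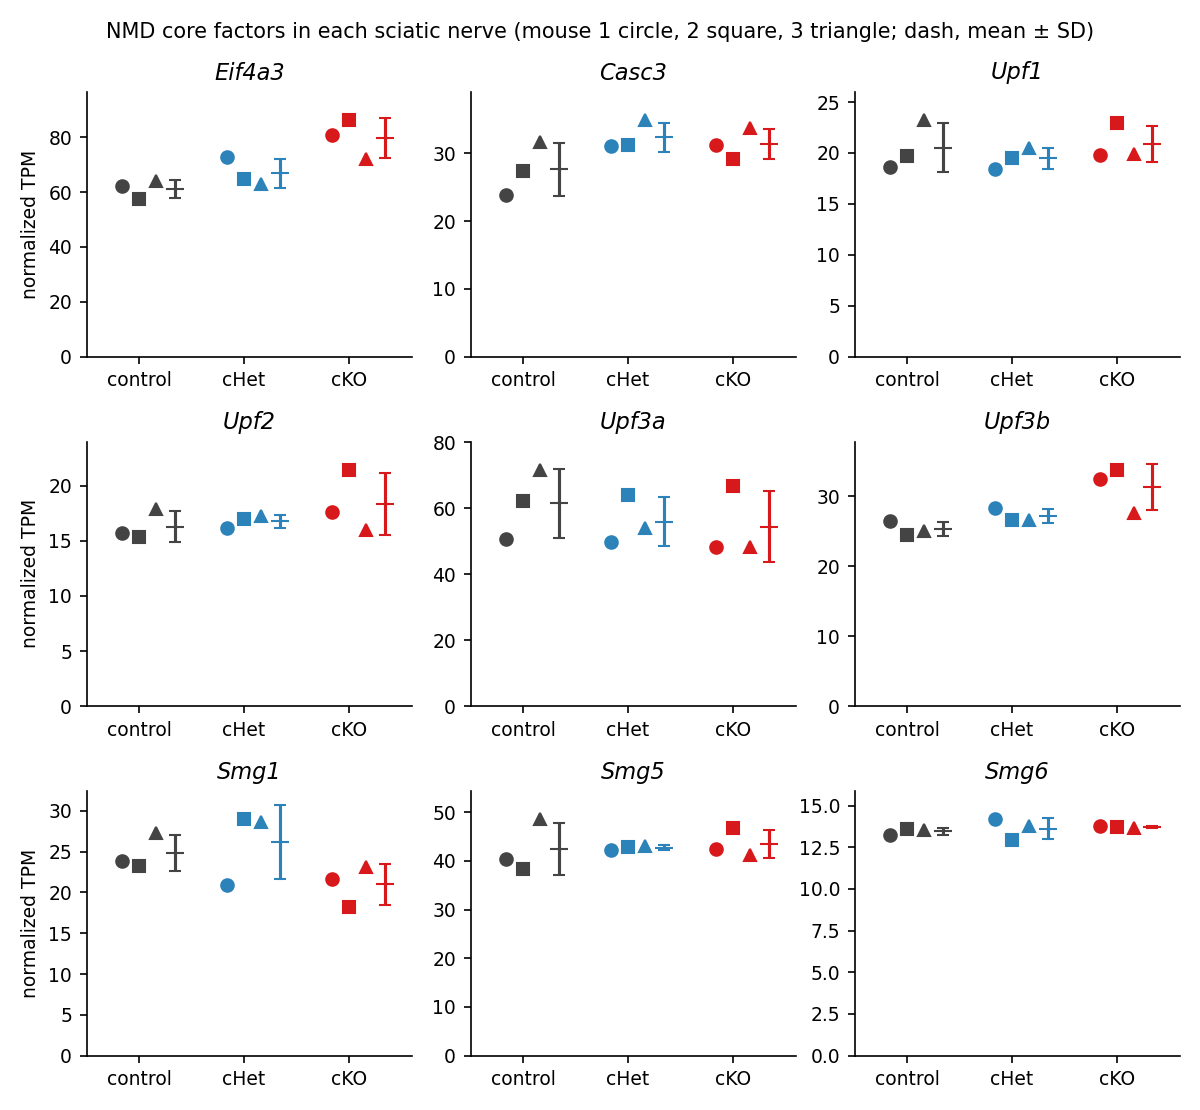
Normalized TPM of each NMD core factor in each library, with control in grey, cHet in blue and cKO in red, mice 1, 2 and 3 of a group as circle, square and triangle, and the mean ± SD (n = 3) as a dash with bars; every axis starts at 0. The cKO values of Eif4a3 and Upf3b lie above the control values, those of Smg1 below, and Smg6 is almost level.

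Eif4a3 gave the largest difference between cKO and control among the 9. This DEAD-box helicase, encoded on the minus strand of GRCm38 at chr11:119288363-119300089, is the RNA clamp of the exon junction complex. Its control values were 62.0, 57.6 and 64.0 normalized TPM, its cHet values 72.8, 64.8 and 62.8 and its cKO values 80.9, 86.1 and 72.0. Each cKO value lay above each control value, while the lowest cKO value lay below the highest cHet value. The means were 61.2 ± 3.30 in control, 66.8 ± 5.30 in cHet and 79.7 ± 7.17 in cKO (SD, n = 3 each), so that the cKO mean exceeded that of control by 30.2%. The log2 fold change against control was 0.38 with a 95% confidence interval of 0.15 to 0.60, and the adjusted p from limma was 0.124. Against cHet it was 0.25, with an interval of 0.03 to 0.48 and an adjusted p of 0.286 from limma. The unadjusted p for cKO against control, 0.0045, ranked at 543 among the 15014 genes. Without cKO 2, which held the highest value, the fold change on the log2 scale was 0.32, and it was 0.40, 0.46 and 0.46 after removal of the libraries rich in neuron, muscle or adipocyte markers, respectively. With groups taken from the genotype fields it was 0.17.

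Eif4a1 and Eif4a2 are paralogs of Eif4a3, helicases of translation initiation that share its fold but not its place in the junction complex. Both were more abundant, with means over the 9 libraries of 311.9 and 441.1 normalized TPM. Eif4a1 stood at 329, 386 and 320 in the cKO, above the 304, 305 and 308 of the control nerves and the 292, 275 and 288 of the cHet. On the log2 scale its difference against control was 0.17 (95% confidence interval -0.04 to 0.38) and against cHet 0.27 (0.06 to 0.48), with adjusted p from limma of 0.508 and 0.224. Eif4a2 had a log2 fold change of -0.17 against control (-0.48 to 0.15), and its cKO and control libraries overlapped.

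Casc3, a largely cytoplasmic partner of Eif4a3, was lowest in the control nerves, though not in every one of them. Its values were 23.9, 27.3 and 31.6 normalized TPM in control, 31.1, 31.3 and 34.9 in cHet and 31.2, 29.2 and 33.7 in cKO. The third control nerve lay within the range of the Cre carriers. The log2 fold change was 0.23 for cHet against control (95% confidence interval -0.03 to 0.50) and 0.19 for cKO against control (-0.08 to 0.45). For cKO against cHet it was -0.05 (-0.31 to 0.22). Adjusted p from limma was 1.0, 0.576 and 0.925 in that order. The cKO difference against control was 0.09 without control 1, which held the lowest value, 0.29 without control 3 and 0.038 without the libraries rich in muscle markers, and the cHet difference was 0.14 without control 1.

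Upf1, the helicase that all branches of NMD require, differed little between the groups. The values were 18.6, 19.7 and 23.2 normalized TPM in control, 18.4, 19.5 and 20.5 in cHet and 19.8, 22.9 and 19.9 in cKO. The 3 groups overlapped, and the means were 20.5 ± 2.41, 19.5 ± 1.06 and 20.9 ± 1.79 (SD, n = 3 each). The interval of the cKO difference against control was -0.23 to 0.28 on the log2 scale, or 0.854 to 1.22 fold, about a fold change of 0.03 on the log2 scale. A change of Upf1 mRNA in the whole nerve larger than these bounds was not seen, and one within them was neither shown nor excluded. The bounds are unadjusted and are not a limit of detection for 3 mice per group.

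Upf2, the scaffold between Upf1 and Upf3 proteins, read 15.7, 15.3 and 17.9 normalized TPM in control, 16.1, 17.01 and 17.2 in cHet and 17.6, 21.4 and 16.0 in cKO. A single library, cKO 2, stood above the rest. The log2 fold change of cKO against control was 0.16 (95% confidence interval -0.12 to 0.44, limma adjusted p = 0.677) and 0.042 without cKO 2. For cHet against control it was 0.04 (-0.24 to 0.33).

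The paralogs Upf3a and Upf3b lay apart in both level and spread. Upf3b, encoded on the minus strand of GRCm38 at chrX:37091678-37110322, is the stronger activator of NMD of the pair, and Upf3a a weaker one that is stabilized as protein when Upf3b is missing. Upf3b read 26.5, 24.4 and 25.0 normalized TPM in control, 28.3, 26.6 and 26.6 in cHet and 32.5, 33.7 and 27.6 in cKO. Every Cre carrier, cHet or cKO, lay above every control nerve, and the cHet and cKO ranges overlapped. The cKO mean of 31.3 ± 3.24 exceeded the control mean of 25.3 ± 1.03 (SD, n = 3 each) by 23.5%, a log2 fold change of 0.30 (95% confidence interval 0.08 to 0.51) with an adjusted p of 0.221 from limma. For cHet against control the log2 fold change was 0.10 (-0.12 to 0.32), and for cKO against cHet 0.20 (-0.02 to 0.42), with an adjusted p of 0.399 from limma. Without cKO 2 the change against control was 0.24, and with groups taken from the genotype fields 0.084.

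Upf3a was about 2 times as abundant as Upf3b in the nerve and the most variable of the 9 among mice of 1 genotype. Its values were 50.7, 62.1 and 71.6 normalized TPM in control, 49.7, 64.0 and 54.0 in cHet and 48.2, 66.9 and 48.2 in cKO. The ranges of the 3 groups overlapped. The coefficient of variation within groups was 16.9%, against 6.76% for Upf3b. Its log2 fold change was -0.18 for cKO against control, with a 95% confidence interval of -0.58 to 0.22, and -0.13 for cHet against control (-0.53 to 0.27). The interval therefore allowed from 0.671 to 1.17 fold in the cKO. Single libraries moved the cKO value, to -0.061 without control 3, -0.099 without cKO 1 or cKO 3, -0.31 without control 1 and -0.33 without cKO 2. The cHet value was -0.013 without control 3, -0.049 without cHet 1, -0.23 without cHet 2 and -0.26 without control 1.

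**Figure D3:**
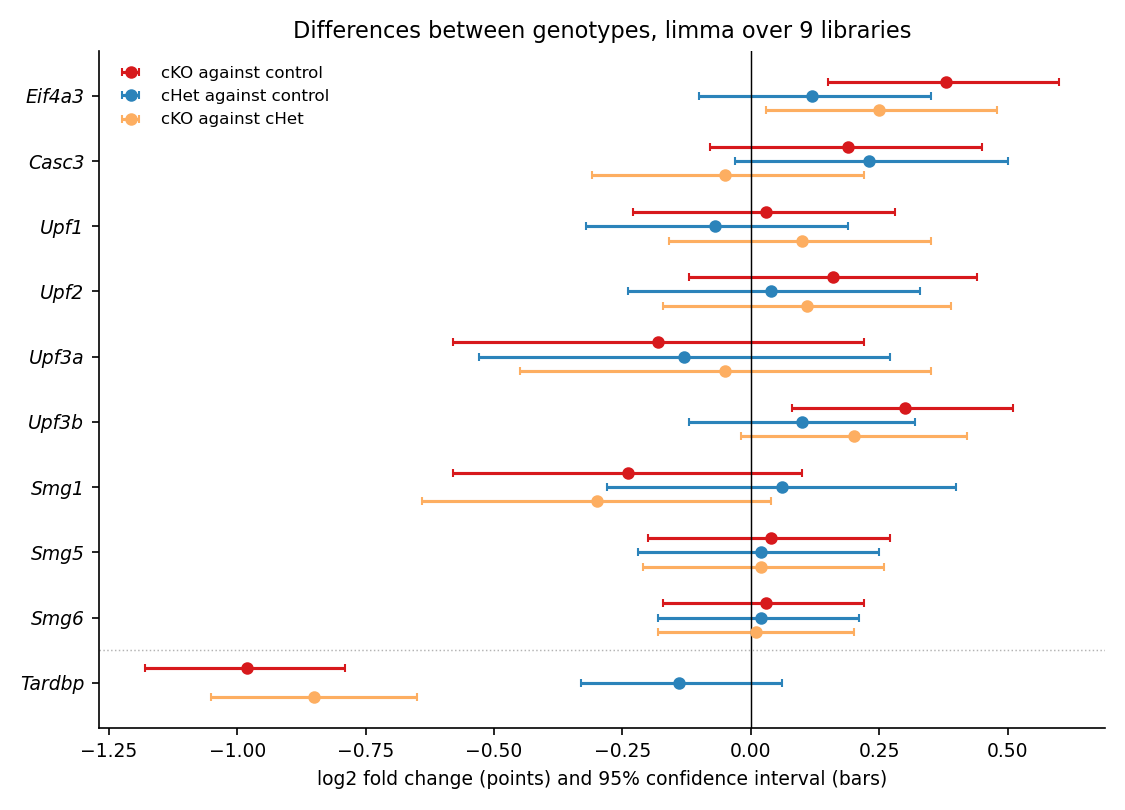
Log2 fold change (points) with 95% confidence interval (bars) of each NMD core factor and of Tardbp for cKO against control (red), cHet against control (blue) and cKO against cHet (orange), from the limma model over 9 libraries. The intervals of Eif4a3 (0.15 to 0.60) and Upf3b (0.08 to 0.51) for cKO against control lie above 0 before adjustment over all genes, and the other members' intervals for that comparison include 0.

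Smg1, the kinase that phosphorylates Upf1, was lower in each cKO nerve than in each control nerve. The control values were 23.9, 23.3 and 27.3 normalized TPM, the cHet values 20.9, 28.9 and 28.6 and the cKO values 21.7, 18.2 and 23.1. The lowest cHet library, cHet 1, fell within the cKO range. The cKO mean of 21.0 ± 2.48 was below the control mean of 24.8 ± 2.19 (SD, n = 3 each), a log2 fold change of -0.24 (95% confidence interval -0.58 to 0.10) with an adjusted p of 0.576 from limma. Against cHet, whose mean was 26.1 ± 4.53, the log2 fold change was -0.30 (-0.64 to 0.04, limma adjusted p = 0.404). Without cKO 2, the library with the lowest value, the change against control was -0.14.

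Smg5 and Smg6, the effectors downstream of phosphorylated Upf1, had the most even group means of the 9. Smg5 read 40.4, 38.3 and 48.5 normalized TPM in control, 42.2, 42.9 and 43.0 in cHet and 42.4, 46.7 and 41.1 in cKO, with control values on both sides of all others. Its log2 fold change was 0.04 for cKO against control (95% confidence interval -0.20 to 0.27). Smg6 read 13.2, 13.6 and 13.5 in control, 14.2, 12.9 and 13.8 in cHet and 13.8, 13.7 and 13.6 in cKO. The highest of its 9 values was 1.10 times the lowest, and the coefficient of variation within groups was 2.85%, the lowest among the 9 factors. Although its cKO values did not overlap those of control, the means were 13.7 ± 0.0853 and 13.4 ± 0.197 (SD, n = 3 each), a difference of 2.0%. The log2 fold change of Smg6 was 0.03 with an interval of -0.17 to 0.22, or 0.891 to 1.17 fold. Tested alone by two-sided exact permutation, each factor whose cKO and control values did not overlap gave p = 0.1, the smallest that 3 mice against 3 allow. Full separation fixes this p in advance, so that it adds nothing to the separation itself.

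Transcript length moved with these differences. Over all tested genes the median log2 fold change of cKO against control was 0.057 for main transcripts under 1000 bases and -0.11 for those of 8000 bases or more, and for cKO against cHet 0.15 and -0.15. The trend was steepest in cKO 2, where the median of log2 values centred on each gene's mean was 0.23 in the shortest class and -0.25 in the longest. The other 8 libraries lay between -0.15 and 0.085 in the shortest class and between -0.075 and 0.075 in the longest. Smg1 has the longest transcript of the 9, with the lowest fold change on the log2 scale, and Eif4a3 the shortest, with the highest. After each library was centred on its own trend over transcript length, the cKO difference against control was -0.09 for Smg1 in place of -0.24, and 0.35 for Eif4a3 (limma adjusted p = 0.116) and 0.28 for Upf3b (limma adjusted p = 0.228) in place of 0.38 and 0.30. For cKO against cHet, centring gave -0.07 for Smg1 in place of -0.30, 0.16 for Eif4a3 in place of 0.25 and 0.15 for Upf3b in place of 0.20. The cause of the trend was not tested.

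**Figure D4:**
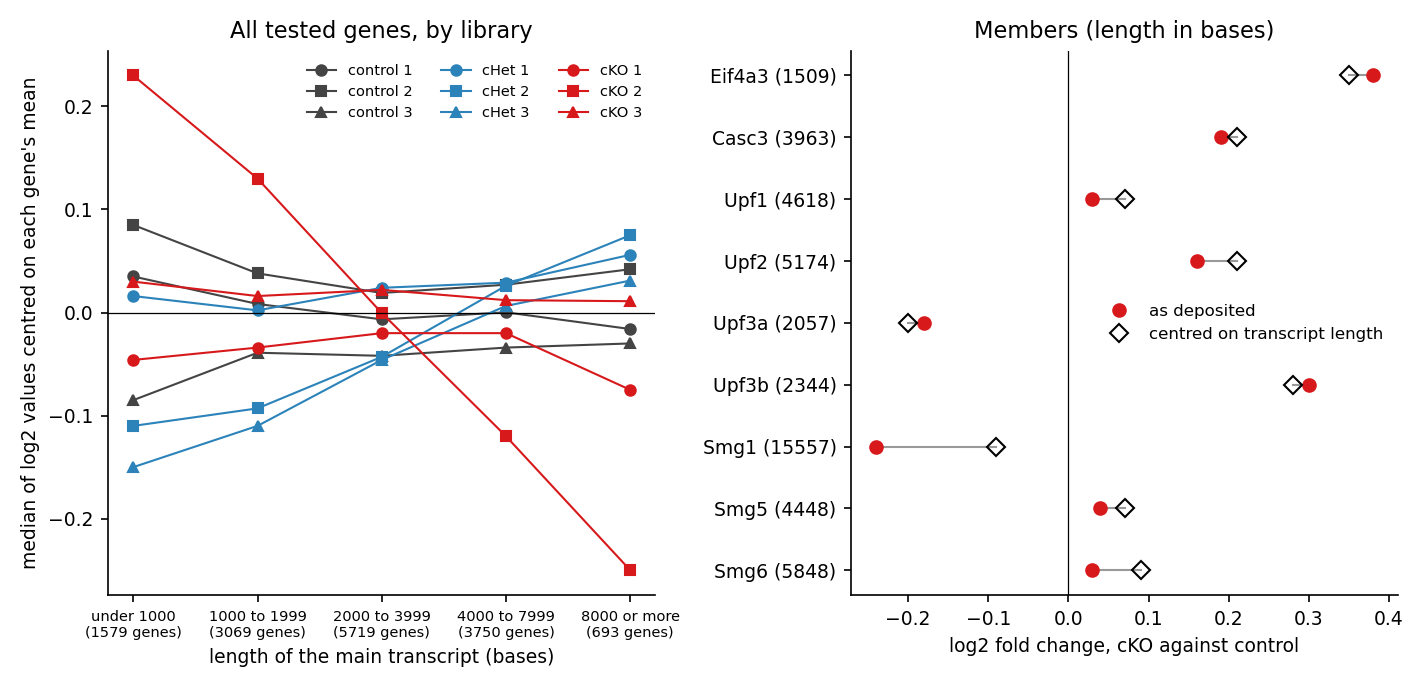
Left, the median over all tested genes of log2 values centred on each gene's mean (y axis), by length class of the main transcript in bases (x axis), 1 line per library; cKO 2 runs from 0.23 to -0.25. Right, the log2 fold change of cKO against control of each NMD core factor as deposited (red circles) and after centring on transcript length (open diamonds), with transcript lengths in bases; Smg1 moves from -0.24 to -0.09 and Eif4a3 from 0.38 to 0.35.

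Among themselves the 9 factors did not share one profile. Likeness was measured as the root mean square difference of the log2 values over the 9 libraries, each gene centred on its mean, as a description of these libraries. Of the 36 pairs, Upf3b and Eif4a3 were the most alike, at 0.0574, and Upf1 and Smg5 came next, at 0.0644. The least alike were Smg1 and Eif4a3, at 0.357, and Smg1 and Upf3b, at 0.326. Against all tested genes, the profile of Eif4a3 was nearest to that of Upf3b and then to those of Smarca5, a chromatin remodelling ATPase, at 0.0666, and Gabpb1, a subunit of the transcription factor GABP, at 0.0670. The nearest to Smg1 were Ash1l, a histone methyltransferase gene, at 0.0452, Hipk1, which encodes a kinase, at 0.0560, and Mapkbp1 at 0.0672. Upf1 was nearest to Ppp1r16a at 0.0294, Rps6ka4 at 0.0404 and Ankrd13a at 0.0441, beside a spread of Upf1 about its own mean of 0.109.

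The wider pathway gave no gene past the threshold. Of 5 other NMD factors (Smg8, Smg9, Dhx34, Nbas and Pnrc2), 10 other exon junction complex genes, 8 genes of cap binding, termination and poly(A) binding, 28 of decapping, deadenylation and decay and 10 kinases of the family of Smg1 with their chaperones, 0 passed an adjusted p of 0.05 from limma in any of the 3 comparisons. For cKO against control, 11 of these 61 genes had an unadjusted p under 0.05 from limma, 7 higher and 4 lower, beside 12.9% of all tested genes. For cKO against cHet the count was 7 of 61, 5 higher and 2 lower, beside 14.6%. For cHet against control it was 0 of 61, beside 2.72%.

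The other junction complex genes had a median log2 fold change of 0.055 for cKO against control, and the genes with the smallest p were the paralogs Magoh and Magohb, whose products form the core of the complex with Rbm8a and Eif4a3. Magoh read 74.3, 69.7 and 51.7 normalized TPM in control, 69.8, 63.1 and 59.7 in cHet and 83.02, 108.6 and 83.4 in cKO. Its cKO values lay above those of both other groups, and the log2 fold change was 0.49 against control (limma adjusted p = 0.217) and 0.50 against cHet (limma adjusted p = 0.194). For Magohb the difference against control was 0.32 on the log2 scale (limma adjusted p = 0.494). It was 0.22 for cHet against control and 0.10 for cKO against cHet, and its cKO libraries overlapped those of both other groups. In the cap, termination and poly(A) list 7 of 8 genes had a fold change above 0 on the log2 scale for cKO against control, with a median of 0.16, beside 6963 of all 15014 genes. Etf1, which encodes the release factor eRF1 that recognizes stop codons, stood at 44.7, 48.3 and 44.4 in the cKO, above the 39.9, 40.0 and 36.9 of control and the 36.9, 36.3 and 36.4 of cHet. Its log2 fold change was 0.23 against control (limma adjusted p = 0.22) and 0.32 against cHet (limma adjusted p = 0.0854), and that of its partner Gspt1, or eRF3a, was 0.23 against control (limma adjusted p = 0.254).

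The 28 decay enzymes were split, with 12 above and 16 below 0 and a median of -0.015 for cKO against control. Cnot7, a deadenylase of the CCR4-NOT complex, had a log2 fold change of 0.33 (limma adjusted p = 0.178) and Wdr61, a subunit of the Ski complex that feeds mRNA to the exosome, one of 0.29 (limma adjusted p = 0.205). Cnot7 stood at 0.22 for cHet against control and 0.11 for cKO against cHet. Cnot6 was lower in cKO, at -0.20 against control (limma adjusted p = 0.37) and -0.28 against cHet (limma adjusted p = 0.161). Among the other NMD factors Pnrc2, an adaptor to decapping, had the smallest p for cKO against control, at a log2 fold change of 0.21 (limma adjusted p = 0.481). The helicase gene Dhx34 followed at -0.15 (limma adjusted p = 0.735), and the median of that list was 0.022. The relatives of Smg1 (Atm, Atr, Mtor, Prkdc and Trrap) and the chaperones that stabilize such kinases lay below 0 for 9 of 10 genes, with a median of -0.083, beside 8051 of all 15014 genes and a median of -0.023. The values of this and the other lists were not centred on transcript length. For cKO against control the median of all tested genes was 0.057 for transcripts under 1000 bases and -0.11 for those of 8000 or more. Tti1, a subunit of the chaperone complex, read 8.07, 7.21 and 8.84 normalized TPM in the cKO against 10.4, 9.61 and 11.1 in control, a log2 fold change of -0.35 (limma adjusted p = 0.213), and for Ruvbl1 the value was -0.20 (limma adjusted p = 0.376). For cHet against control Tti1 stood at -0.06 and Ruvbl1 at -0.17, and for cKO against cHet at -0.30 and -0.03.

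**Figure D5:**
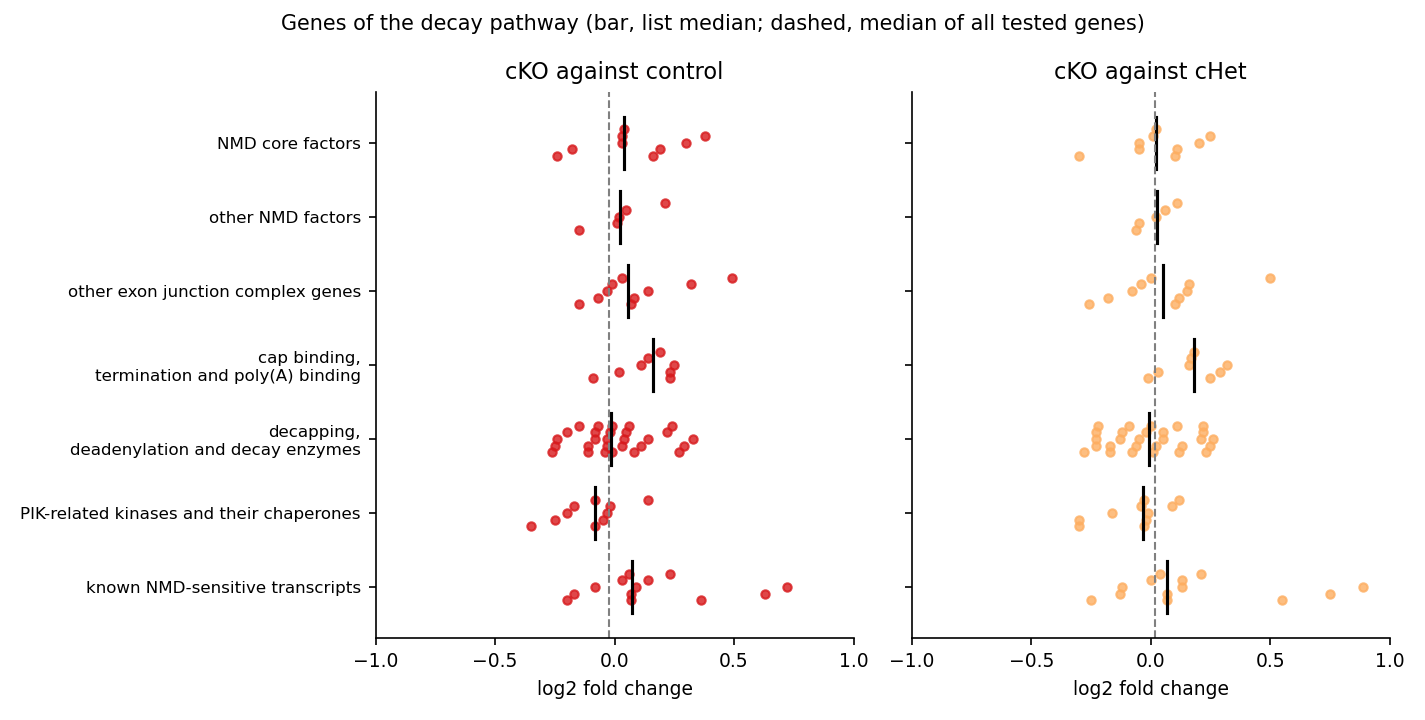
Log2 fold change of each gene (points) of the NMD core factors and 6 related lists for cKO against control (left) and cKO against cHet (right), with the median of each list (black bar) and of all tested genes (dashed line). List medians lie between -0.083 and 0.16 on the left, and the points furthest to the right are Gadd45b at 0.72 and 0.89.

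A list of transcripts known to be NMD-sensitive was set beside these. Of 13 such genes tested, 0 passed an adjusted p of 0.05 from limma in any comparison, and 2 of 13 for cKO against control and 3 of 13 for cKO against cHet had an unadjusted p under 0.05, all of them higher in cKO, beside 12.9% and 14.6% of all tested genes. Their median log2 fold change was 0.074 for cKO against control and 0.067 for cKO against cHet, with 10 of 13 above 0 in both, beside 6963 and 7890 of all 15014 genes and medians of -0.023 and 0.016. Gadd45b, a stress-induced gene whose mRNA is a substrate of NMD, read 16.6, 10.5 and 11.4 normalized TPM in control, 14.0, 10.2 and 9.63 in cHet and 22.7, 22.9 and 17.8 in cKO. The cKO values lay above all others, at log2 fold changes of 0.72 against control (limma adjusted p = 0.166) and 0.89 against cHet (limma adjusted p = 0.0827). Gadd45a stood at 0.63 against control (limma adjusted p = 0.380) and Ddit3, the transcription factor CHOP of the stress response, at 0.55 against cHet (limma adjusted p = 0.228). Against control Ddit3 stood at 0.36 (limma adjusted p = 0.497), and its cKO and control libraries overlapped. Below 0 in both comparisons lay 3 of the 13, Atf3, Map3k14 and Hnrnpl. Atf3 was the lowest of the list, at -0.20 against control (limma adjusted p = 0.787) and -0.25 against cHet (limma adjusted p = 0.662). Its cKO libraries overlapped those of both other groups. Nfasc itself stood at 103, 87.1 and 93.9 normalized TPM in the cKO, below the 111, 115 and 214 of control and the 139, 165 and 156 of cHet. The log2 fold change was -0.56 against control (limma adjusted p = 0.348), where control 3 alone held 214. Against cHet it was -0.69 (limma adjusted p = 0.209).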

How the data were processed

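Nerve RNA (Trizol, Illumina TruSeq) was sequenced by the authors, who deposited 1 signal per gene and library, in normalized TPM. Tools named by the submitters were kallisto 0.44.0 and sleuth 0.30.0, on GRCm38. Parameters, strandedness and the method of scaling were not found stated; library sums ran from 934932 to 1158094, with cKO 2 highest. TPM do not record the reads behind each value, and counting error was not computed. Symbols were matched by Ensembl identifier (35471 of 36121 genes).

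Values of the 15014 genes whose mean reached 1 entered limma 3.58.1 (R 4.3.3) as log2(value + 0.5), a scale that understates changes of low genes. One model covered all 9 libraries, using lmFit, contrasts.fit and eBayes with a trend of variance on mean. Adjustment was by Benjamini-Hochberg over all tested genes, with 0.05 as the threshold; confidence intervals are unadjusted. The model was tested on simulated data. Members and lists were chosen with earlier results of these data known. Besides the members the text gives values of Tardbp, Cnp, Nfasc, Eif4a1 and Eif4a2, and of the 3 genes nearest in profile to Upf1, Smg1 and Eif4a3. From each list it gives the 2 genes with the smallest p for cKO against control. The same rank for cKO against cHet added only Cnot6 and Ddit3, while Rnps1, Pabpc1 and Prkdc are not given by value. Atf3 was added as the lowest of its list. Transcript models and isoform sequences are those of GENCODE M21, and the position and sequence of CE1 those of the study. Of 20 NMD-sensitive genes listed, 7 noncoding ones were not used here. 1 further gene of the lists is not reported here. Replicate numbers only name libraries.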

Additional observations from a re-analysis of the deposited data

How the results depend on the processing

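The member fold changes, Tardbp and the counts of genes called among members and lists were recomputed under 26 alternatives, of which 4 (leaving out libraries high in a marker list, and centring on transcript length) were chosen after seeing the data. The count of NMD core factors called stayed at 0 in each comparison under all 26, and of 702 member values 0 passed the threshold. A sign opposite to that reported was found for 54 of the 702, in members whose reported value was at most 0.25 in size. Values below are log2 fold changes, and the cause of each change was not tested.

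Groups taken from the genotype fields, which leave 1 cKO library, gave -0.90 for Tardbp in cKO against control (limma adjusted p = 0.997) and -0.37 against cHet (1.0). Opposite signs were -0.024 for Upf2 and -0.036 for Smg5 in cKO against control, 0.053 for Upf1 and -0.0084 for Smg6 in cHet against control, and -0.051 for Upf1, -0.19 for Upf2, -0.10 for Upf3b, -0.087 for Smg5, -0.020 for Eif4a3 and 0.091 for Casc3 in cKO against cHet. Without the 3 libraries whose genotype field differs from the title, Tardbp gave -0.94 (limma adjusted p = 0.358) and -0.81 (0.421) in the same comparisons, and the signs turned for Upf1 (-0.035), Upf2 (-0.027) and Smg5 (-0.036) in cKO against control, Smg6 (-0.012) in cHet against control, and Upf1 (-0.0066), Upf2 (-0.099), Smg5 (-0.062) and Casc3 (0.028) in cKO against cHet.

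Libraries rescaled to the same sum, under which the median of all genes in cKO against cHet was -0.118 in place of 0.016, gave -0.037 for Upf1, -0.027 for Smg5 and -0.037 for Smg6 in cKO against control, 0.0073 for Upf1 in cHet against control, and -0.044 for Upf1, -0.027 for Upf2, -0.12 for Smg5 and -0.13 for Smg6 in cKO against cHet. For cKO against cHet Smg5 was also -0.011 with array weights and -0.030 with quantile normalization, and Smg6 -0.003 with median of ratios scaling. Array weights also called 1 gene in each of 4 lists in that comparison, Gadd45b at 0.98, Etf1 at 0.30, Cnot6 at -0.30 and Magoh at 0.47. Centring on transcript length gave -0.020 for Smg1 and -0.016 for Smg6 in cHet against control.

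Without the libraries high in neuron markers Tardbp gave -1.02 in cKO against control (limma adjusted p = 0.0823) and -0.89 against cHet (0.117), and Smg5 -0.043 and Smg6 -0.0041 in cHet against control. Without those high in adipocyte markers Tardbp gave -0.95 in cKO against control (limma adjusted p = 0.0533). Without those high in skeletal muscle markers the values were -0.0059 for Upf1 in cKO against control, -0.013 for Smg5 in cHet against control and 0.030 for Upf3a in cKO against cHet.

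Leaving out each library in turn gave ranges across 0 of -0.040 to 0.12 for Upf1 and -0.030 to 0.14 for Smg5 in cKO against control. In cHet against control they were -0.13 to 0.022 for Upf1, -0.018 to 0.21 for Smg1, -0.051 to 0.12 for Smg5 and -0.012 to 0.052 for Smg6. In cKO against cHet they were -0.0021 to 0.21 for Upf2, -0.20 to 0.053 for Upf3a, -0.031 to 0.059 for Smg5, -0.025 to 0.039 for Smg6 and -0.097 to 0.0071 for Casc3. No paired analysis was possible because no label ties a mouse to a litter or set, and sex enters as a covariate in 1 of the alternatives. The confidence intervals are unadjusted and are not a limit of detection. Those of Eif4a3 and Upf3b for cKO against control excluded 0, and neither factor passed the adjusted threshold.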
